A study of Mus musculus with 10 samples.

Results

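The 10 circadian clock genes described here are Per1, Per2, Per3, Cry1, Cry2, Clock, Npas2, Nr1d1, Nr1d2 and Dbp, chosen by gene symbol from 29883 genes counted in the nucleus accumbens (NAc), a part of the ventral striatum. All 10 were in the count table, and none was set aside for low counts. The tissue came from 5 C57BL/6J (B6) and 5 DBA/2J (D2) mice, inbred strains that differ in their behavior toward ethanol and are the parents of the BXD lines. Every mouse was male, naive to ethanol, otherwise untreated, 9 weeks old and group-housed in cycles of 12 h of light and 12 h of dark, and each gave 1 library. The study sequenced these mice to compare the strains at baseline, so a comparison of clock genes asks which of them differ between B6 and D2 before any ethanol. The hour at which each mouse was killed is not given in the sources used here, and its part in any value of these time-dependent genes was not tested.

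The clock is a loop of transcription and repression. CLOCK, or its paralogue NPAS2, pairs with BMAL1 and binds E-boxes in the Per and Cry genes, whose protein products later repress this pair. NR1D1 and NR1D2 (REV-ERB alpha and beta) repress transcription through ROR elements, among others in Bmal1 itself, while DBP activates genes through D-boxes and is itself a target of CLOCK and BMAL1. In the forebrain NPAS2 is abundant and can stand in for CLOCK. Per1 is also known as a gene that responds quickly to neuronal activity, and to glucocorticoids.

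Libraries held 96977262 to 116776714 counted reads, and counts are given below as normalized counts (scaled by TMM, the trimmed mean of M values, to the average library). The labelled tissue carried its defining markers, since all 9 striatal neuron markers were detected in every library, with summed levels of 4706 to 6011 CPM, which is the count scaled to a common library size, in B6 and 3902 to 4741 in D2. Of these 9 markers, edgeR called 6 lower in D2 (66.7%, beside 18.3% of all genes) and none higher. Cortical projection neuron markers set B6 replicates 3 and 5 apart. The 7 markers summed to 979 and 994 CPM in these mice, to 142, 149 and 222 CPM in the other B6 mice and to 291 to 656 CPM in D2. Of the 7, Cux2 alone went the other way, with 5341 and 5710 normalized counts in these mice and 6736 to 7372 in the other B6 mice. Replicates 3 and 5 also had the highest summed oligodendrocyte markers (6233 and 6202 CPM) and, within B6, the lowest striatal sums (4726 and 4706 CPM). Of the 7 cortical markers, none passed the edgeR test between the strains, while 1 had an unadjusted p under 0.05 and DESeq2 called 0. Results are therefore also given without B6 replicates 3 and 5 where this changed a call. The B6 mice left in these fits, at 142 to 222 CPM, all lay below every D2 mouse, at 291 to 656 CPM. Cortical marker level and strain therefore cannot be told apart in these fits. In bulk tissue, fewer cells of a type and less RNA per cell cannot be told apart.

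Of the 10 clock genes, Per3 was higher and Npas2 lower in D2, and the other 8 did not pass the test (edgeR quasi-likelihood test, Benjamini-Hochberg adjusted p under 0.05 over all genes). These 2 of 10 genes (20%) stand beside 18.3% of all 29883 genes called in either direction, 8.5% called higher in D2 and 9.83% called lower in D2, so the share of called clock genes lay near the background. Among genes averaging 100 counts or more, as all 10 clock genes did, 23.8% were called. The median log2 fold change, D2 against B6, was -0.06 over the clock genes and 0.0036 over all genes. Median absolute log2 fold changes were 0.079 and 0.20, and the latter was 0.099 over genes averaging 100 counts or more. Per3 and Npas2 were also the clock genes whose normalized counts did not overlap between the strains, as held for 16% of all genes.

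**Figure D1:**
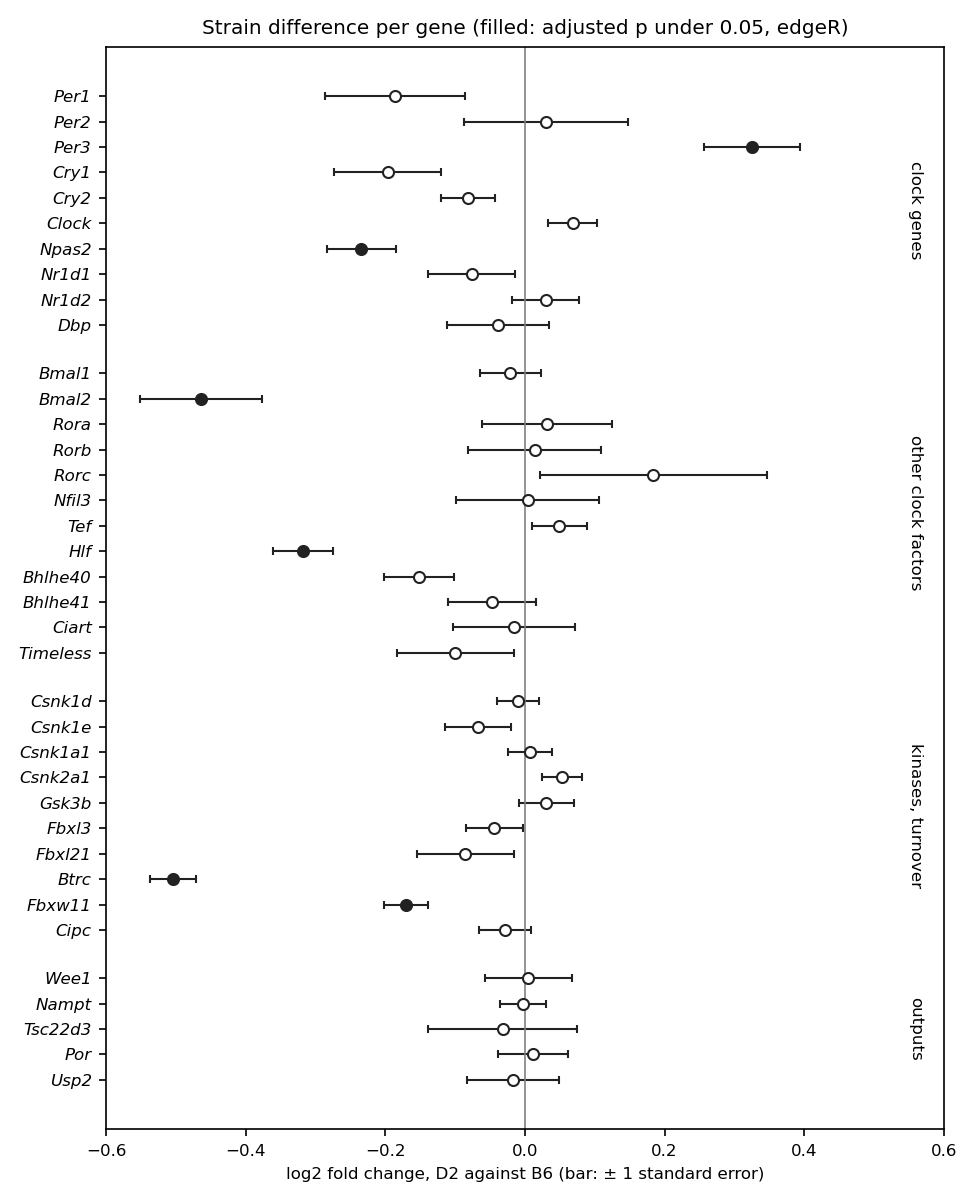
Log2 fold change of D2 against B6 (x axis) for the 10 clock genes, followed by the other clock factors, the kinases and turnover factors, and the output genes. Points are at the edgeR estimate with bars of 1 standard error, and filled points passed an adjusted p of 0.05. Per3 at 0.33 and Npas2 at -0.23 stand on opposite sides of 0, and the other 8 of the 10 clock genes lie between -0.20 and 0.07.

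Among the Per genes, which encode the period proteins that repress CLOCK and BMAL1, Per3 differed between the strains. Per3 (ENSMUSG00000028957) lies on the reverse strand of chromosome 4 of GRCm39 from 151081373 to 151129140. Its normalized counts were 8771, 7781, 6874, 9092 and 7426 in the 5 B6 mice, and 10090, 10397, 9279, 10089 and 10205 in the 5 D2 mice. The lowest D2 mouse lay above the highest B6 mouse, by a small margin. Means were 7989 ± 926 for B6 and 10012 ± 429 for D2 (SD, n = 5), and the log2 fold change was 0.33 (standard error 0.069; edgeR, adjusted p = 0.0047). A two-sided exact permutation test over mice gave p = 0.0079, the smallest possible for 5 mice against 5. Without B6 replicates 3 and 5, which had the lowest Per3 counts among B6 along with the highest cortical marker levels, the log2 fold change was 0.23 and the gene was still called (adjusted p = 0.0094). Over 19 alternative fits the adjusted p of Per3 ran from 8.0e-05 to 0.015. No other counted gene shares exon bases with Per3.

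**Figure D2:**
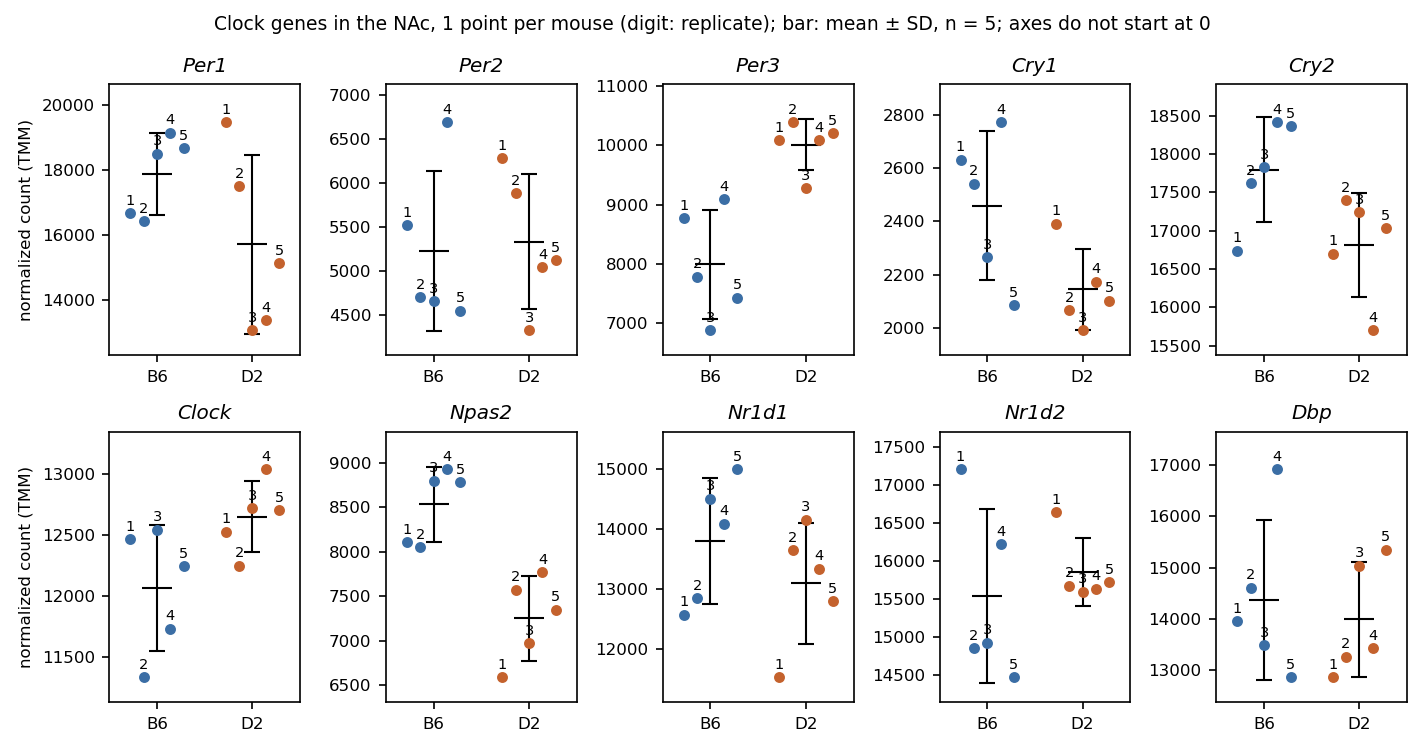
Normalized count (y axis, a separate range for each gene that does not start at 0) of the 10 clock genes in each mouse, with B6 in blue and D2 in orange; digits are replicate numbers and bars are mean ± SD, n = 5. The strains do not overlap in Per3 and Npas2, and they overlap in the other 8 genes.

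In the windows and with the letters searched here, the Per3 promoter was the one clock promoter with D-boxes, the elements bound by DBP and its relatives. Motifs were searched on both strands of RefSeq promoter windows, 250 bases before to 50 after each start (table build GRCm38.p6), of which 12 belong to the 10 clock genes. The D-box, searched as TTATGTAA or TTACGTAA, was in 1.06% of all 32851 promoters. Both Per3 copies read TTATGTAA, 205 and 158 bases before the RefSeq start and upstream of the annotated gene. The windows below, with the motif in capitals, were placed on GRCm39 by exact match and are printed on the strand of the gene. They show the reference, which is the B6 sequence, and the D2 alleles were not analysed here.
Per3 D-box, distal, chr4:151129311-151129336, reverse strand: acccgcgcgTTATGTAAggtactcgg
Per3 D-box, proximal, chr4:151129264-151129289, reverse strand: cgcccgcggTTATGTAAcccccgccg
The distal window also lies in an exon of a gene model on the annotation, ENSMUSG00000135744. The E-box CACGTG, the element of CLOCK and BMAL1, was in 7.15% of all promoters and in those of Cry1 and Per1.
Cry1 E-box, chr10:85020963-85020988, reverse strand: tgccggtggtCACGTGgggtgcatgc
Per1 E-box, chr11:68989599-68989624, forward strand: cacccaagtcCACGTGcagggatgtg
These E-boxes lie 60 and 166 bases before the RefSeq starts, each inside an exon of an annotated transcript of the same gene, and the Per1 window also lies in an exon of the gene model ENSMUSG00000126838. The related E-box CACGTT was in 4.68% of all promoters and in those of Cry1, Cry2 and Nr1d1, and the Cry1 copies of both E-boxes do not overlap. The ROR elements TAGGTCA and TGGGTCA (6.45% of promoters) and the cAMP response element TGACGTCA (1.79%) were in 0 of the clock promoters, in these windows and with these letters. None of the searched motifs was in the windows of Npas2, Per2, Clock, Nr1d2 or Dbp. A match is a description of the sequence and not of binding.

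Per1 (ENSMUSG00000020893), on chromosome 11, varied more among D2 than among B6 mice. Its normalized counts were 16676, 16430, 18518, 19164 and 18682 in B6 and 19491, 17523, 13086, 13395 and 15149 in D2. D2 replicates 3, 4 and 5 lay below every B6 mouse, while D2 replicate 1 lay above them all. Means were 17894 ± 1250 in B6 and 15729 ± 2745 in D2 (SD, n = 5), and the log2 fold change of -0.19 (standard error 0.10) did not pass the test (edgeR, adjusted p = 0.25). Without D2 replicate 1 the gene was called, with a log2 fold change of -0.27 (adjusted p = 0.045, where the 19 alternative fits ran up to 0.46).

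Per1 counts went with those of the immediate early genes, which neurons transcribe shortly after activity. Egr1, a zinc finger transcription factor of this class, had 22204, 18715, 25352, 26148 and 25147 normalized counts in B6 and 24888, 22881, 12651, 12739 and 18566 in D2. As in Per1, D2 replicates 3 and 4 were the lowest of the D2 mice and replicate 1 the highest. After the strain means were removed, Pearson's r between Per1 and Egr1 over the 10 mice was 0.97 (Spearman's rho 0.99), with 0.93 in B6 and 0.98 in D2, and Egr1 ranked 2 of 15384 genes in likeness to Per1. The points share libraries and depth, and r was 0.96 without the 2 mice farthest from the median. Over 16 immediate early genes, r with Per1 was above 0 in all 16 and above 0.7 in 12, with a median of 0.88. For most of the 16 it was lower within B6 than within D2. Within B6 it was -0.05 for Sik1, 0.36 for Egr2 and 0.37 for Egr3, against 0.996, 0.97 and 0.82 within D2. Dusp1 (0.92 in B6, 0.83 in D2) and Npas4 (0.79 and 0.31) went the other way, and the difference between the strains was not tested. For Per2, r was above 0.7 in 6 of the 16 (median 0.65), and in none for each of the other 8 clock genes. Per1 also went with genes that glucocorticoids induce. Over 10 of these, r with Per1 was above 0 in 9 and above 0.7 in 3, with a median of 0.54. For Cry2, r was above 0 in 9 (median 0.33), and for Per2 and Cry1 in 8 each (medians 0.47 and 0.20). In the remaining clock genes it was above 0 in 1 (Clock) to 6 (Per3). No clock gene other than Per1 had an r above 0.7 with these genes.

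**Figure D3:**
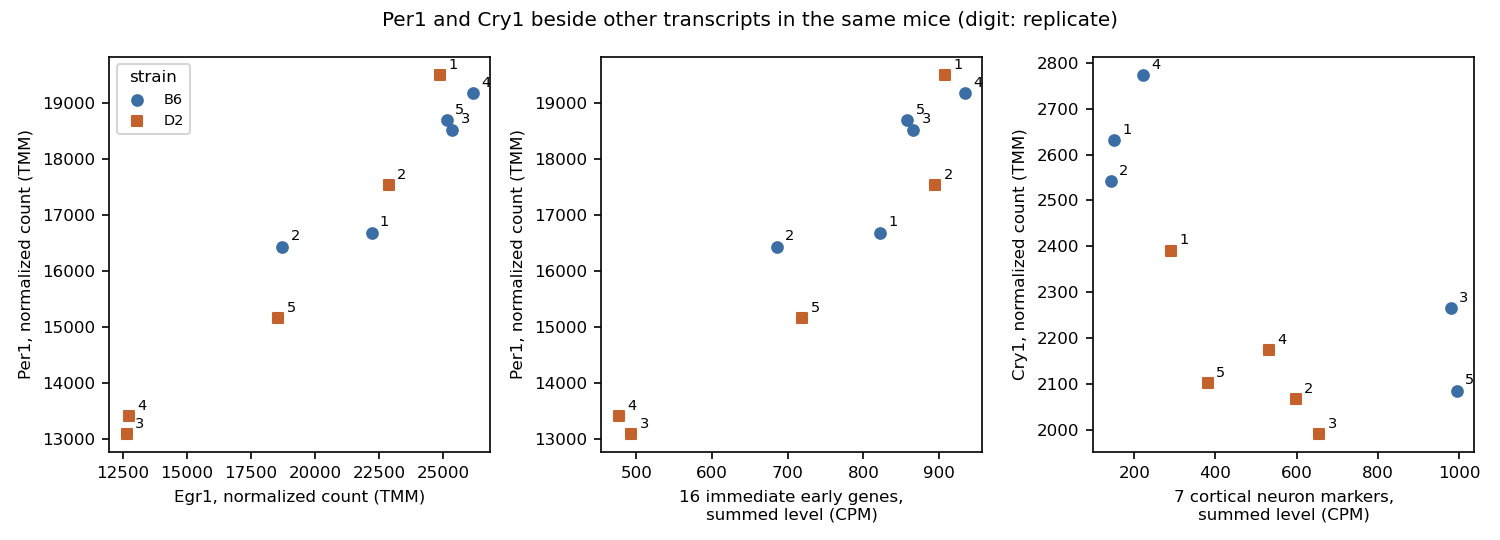
Normalized counts in each mouse (B6 blue, D2 orange, digits are replicates). Per1 follows Egr1, with D2 replicates 3 and 4 lowest in both, and Cry1 is set beside the summed CPM of 7 cortical projection neuron markers, where B6 replicates 3 and 5 stand at 979 and 994 CPM.

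The immediate early genes themselves summed to 822, 685, 866, 934 and 858 CPM in B6 and to 908, 895, 493, 476 and 719 CPM in D2, so the D2 mice covered a wider range. Of the 16 genes, 14 had a negative log2 fold change, and 1 passed the test (6.25%, beside 18.3% of all genes). This was Egr3, with 12431 ± 1030 normalized counts in B6 and 10412 ± 1111 in D2 (SD, n = 5; log2 fold change -0.26, standard error 0.075, edgeR adjusted p = 0.031). The call was lost in 5 of 19 alternative fits, among them without B6 replicate 4, D2 replicate 3 or D2 replicate 4, with adjusted p up to 0.077. Of the 10 genes that glucocorticoids induce, Mt1 and Nfkbia were called lower in D2 and none was called higher. This share of 20% stood beside 18.3% of all genes. Mt1, a metallothionein, had a log2 fold change of -0.20 (standard error 0.062, adjusted p = 0.039) and Nfkbia, an inhibitor of NF-kappa B, of -0.21 (standard error 0.066, adjusted p = 0.040). Both calls were lost in 7 of 19 alternative fits each. The part of the immediate early genes' spread in the Per1 values was not tested.

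Per2 (ENSMUSG00000055866), on chromosome 1, overlapped between the strains. Its normalized counts were 5521, 4703, 4661, 6696 and 4554 in B6 and 6283, 5888, 4331, 5050 and 5130 in D2, with the highest mouse in B6 and the lowest in D2. Means were 5227 ± 907 and 5336 ± 764 (SD, n = 5), and the log2 fold change was 0.03 (standard error 0.12; edgeR, adjusted p = 0.91). Per2 had the largest spread of the clock genes within strains, an SD of 0.22 on the log2 scale, followed by Per1 at 0.19, where the median over all genes averaging 100 counts or more was 0.094. Clock and Cry2 were the tightest, at 0.050 and 0.058.

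Cry1 and Cry2 encode the cryptochromes, the partners of the PER proteins in repression. Cry1 (ENSMUSG00000020038), on chromosome 10, had 2631, 2542, 2265, 2773 and 2086 normalized counts in B6 and 2391, 2068, 1992, 2174 and 2103 in D2. The 3 highest values were those of B6 replicates 1, 2 and 4, and B6 replicates 3 and 5 both lay among the D2 mice. Means were 2459 ± 279 and 2146 ± 152 (SD, n = 5), and the log2 fold change was -0.20 (standard error 0.077; edgeR, adjusted p = 0.10). Within B6 the Cry1 counts were lower in the mice with high cortical marker levels, replicates 3 and 5. Without these 2 mice, a choice made after seeing the data, Cry1 was called lower in D2 (log2 fold change -0.30, adjusted p = 0.0030), and likewise without B6 replicate 5 alone (-0.26, adjusted p = 0.020), while over 19 alternative fits the adjusted p ran from 0.0030 to 0.22. With the cortical marker level as a covariate, all 5 B6 mice kept, the difference was smaller, -0.14, and did not pass (adjusted p = 0.056). Without these 2 mice 3 clock genes passed, with Per3 and Npas2, and 5745 of all genes. The B6 mice left in this fit all had lower summed cortical marker levels than every D2 mouse, so this level and the strain cannot be told apart there.

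Cry2 (ENSMUSG00000068742), on chromosome 2, had 16736, 17619, 17828, 18416 and 18363 normalized counts in B6 and 16697, 17400, 17243, 15701 and 17034 in D2. The ranges overlapped through B6 replicate 1, and the log2 fold change of -0.08 (standard error 0.038) did not pass the test (edgeR, adjusted p = 0.18). The log2 ratio of Cry1 to Cry2 counts was -2.86 ± 0.19 for B6 and -2.97 ± 0.14 for D2 (SD, n = 5), with overlapping ranges.

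Npas2 and Clock encode the alternative partners of BMAL1, and of the pair Npas2 differed between the strains, with less in D2. Npas2 (ENSMUSG00000026077) lies on the forward strand of chromosome 1 from 39232705 to 39402323. Its normalized counts were 8107, 8047, 8797, 8926 and 8784 in B6 and 6587, 7572, 6973, 7770 and 7347 in D2. Every D2 mouse lay below every B6 mouse. Means were 8532 ± 420 and 7250 ± 474 (SD, n = 5), and the log2 fold change was -0.23 (standard error 0.049; edgeR, adjusted p = 0.0046; two-sided exact permutation test, p = 0.0079). Without B6 replicates 3 and 5 it was -0.21 (adjusted p = 0.019), the highest adjusted p of 19 alternative fits, which started at 3.7e-04. Striatal neuron markers were lower in D2 as well, 6 of 9, and their part in the Npas2 values was not tested.

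Clock (ENSMUSG00000029238), on chromosome 5, had 12468, 11334, 12545, 11733 and 12246 normalized counts in B6 and 12530, 12249, 12724, 13041 and 12708 in D2. The log2 fold change of 0.07 (standard error 0.035) did not pass the test (edgeR, adjusted p = 0.22), and the strains overlapped. Since a ratio of 2 genes within a library does not depend on its scaling, the ratio of Clock to Npas2 counts was taken for each mouse. It ran from 1.31 to 1.54 in B6 and from 1.62 to 1.90 in D2, with no overlap. On the log2 scale it was 0.50 ± 0.081 and 0.81 ± 0.093 (SD, n = 5). Of the 6 paralogue ratios taken, the other 5 overlapped between the strains. Among them, Per1 to Per3 was 1.17 ± 0.21 for B6 and 0.64 ± 0.22 for D2 on the log2 scale, and Per2 to Per3 was -0.62 ± 0.12 and -0.92 ± 0.17 (SD, n = 5).

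Nr1d1 and Nr1d2 encode the REV-ERB repressors. Nr1d1 (ENSMUSG00000020889), on chromosome 11, had 12570, 12844, 14512, 14089 and 15002 normalized counts in B6 and 11518, 13646, 14160, 13339 and 12797 in D2. The log2 fold change of -0.08 (standard error 0.062) did not pass the test (edgeR, adjusted p = 0.48), but with the cortical marker level as a covariate it was -0.12 and passed, among 7833 of all genes (adjusted p = 0.045, where the 19 alternative fits ran up to 0.95). Its exons overlap those of Thra, a thyroid hormone receptor gene on the opposite strand, over 1694 bases, 52.3% of the Nr1d1 exon bases. The strand setting of the counting is not given in the sources used here. Over the shared bases, the Nr1d1 count may therefore lack reads of Nr1d1 or hold reads of Thra. Thra had 67986 ± 1644 normalized counts in B6 and 67863 ± 1593 in D2 (SD, n = 5; adjusted p = 0.97).

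Nr1d2 (ENSMUSG00000021775), on chromosome 14, had 17213, 14856, 14925, 16221 and 14469 normalized counts in B6 and 16648, 15678, 15601, 15638 and 15726 in D2. Except for replicate 1, the D2 mice lay closely together, from 15601 to 15726. The log2 fold change was 0.03 (standard error 0.047; edgeR, adjusted p = 0.75).

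Dbp (ENSMUSG00000059824), on chromosome 7, is an output gene of the loop and encodes the D-box activator. It had 13960, 14613, 13494, 16919 and 12860 normalized counts in B6 and 12862, 13266, 15037, 13429 and 15354 in D2, with the highest mouse and the lowest both in B6. The log2 fold change was -0.04 (standard error 0.073; edgeR, adjusted p = 0.79). Dbp overlaps Sphk2 on the opposite strand over 15.5% of its exon bases and Clock overlaps Tmem165 over 11.9%, and neither Sphk2 nor Tmem165 was called (adjusted p = 0.83 and 0.93).

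Compared between genes per length, the levels fell into 3 tiers, given as CPM per kb of exon. Nr1d1 and Dbp were the highest, at 39.5 ± 3.02 and 38.4 ± 4.18 in B6 and 37.5 ± 2.89 and 37.4 ± 3.01 in D2 (SD, n = 5). Per1 (21.7 ± 1.51 in B6, 19.1 ± 3.33 in D2), Cry2 (19.2 ± 0.737 and 18.2 ± 0.731), Nr1d2 (15.9 ± 1.18 and 16.3 ± 0.455) and Npas2 (14.5 ± 0.711 and 12.3 ± 0.803) followed. Per2 (7.39 ± 1.28 and 7.54 ± 1.08), Per3 (7.07 ± 0.819 and 8.85 ± 0.379), Clock (6.49 ± 0.278 and 6.80 ± 0.156) and Cry1 (4.58 ± 0.520 and 4.00 ± 0.283) were the lowest. The order of Nr1d1 and Dbp, in D2 that of Per1 and Cry2, and in B6 that of Per2, Per3 and Clock, lay within the spread between mice. In B6 the lowest Per1 mouse and the highest Cry2 mouse were both at 19.9, with no overlap. Nr1d2 overlapped with Npas2 in B6 and with Cry2 in D2, and Cry1 lay below Clock in every mouse. In D2 Per3 lay above Per2 in mean, with overlapping ranges, and above Clock in every mouse. All 10 genes lay above at least 75.2% of genes in mean level per kb. Nr1d1 and Dbp share 52.3% and 15.5% of their exon bases with genes on the opposite strand, and the effect on their levels was not tested.

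**Figure D4:**
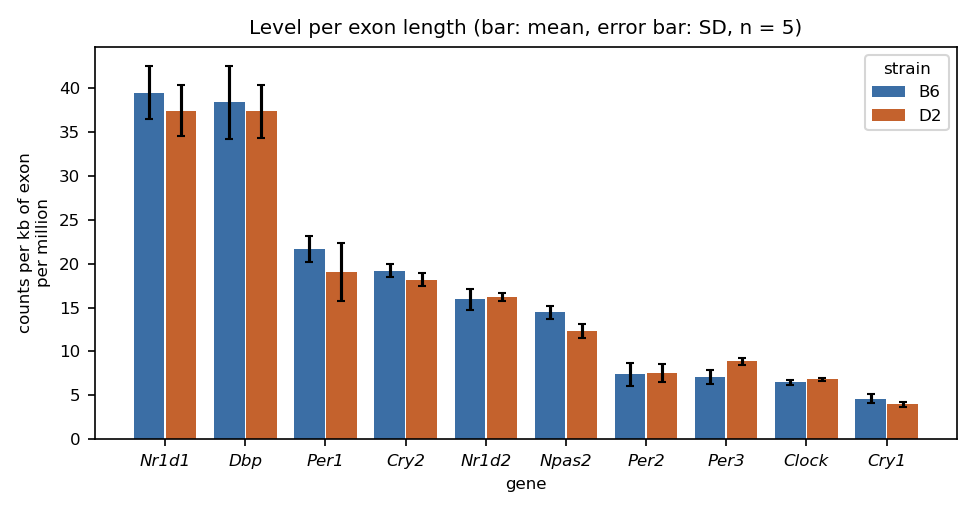
Level per length (CPM per kb of exon) of the 10 clock genes in B6 (blue) and D2 (orange), with bars at the strain mean and error bars of the SD. Nr1d1 and Dbp stand at the top and Cry1 at the bottom in both strains.

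The rest of the clock machinery was read from lists. The 12 other clock factors had 16.7% called, beside 18.3% of all genes. Of these factors, Bmal2 and Hlf were called lower in D2 and none was called higher. Bmal2, a paralogue of Bmal1, had 1488 ± 145 normalized counts in B6 and 1079 ± 125 in D2 (SD, n = 5; log2 fold change -0.46, standard error 0.087, edgeR adjusted p = 0.0021). Hlf, a D-box activator like DBP, had 19603 ± 830 and 15728 ± 827 (SD, n = 5; log2 fold change -0.32, standard error 0.043, adjusted p = 1.6e-04). Bmal1, the common partner of CLOCK and NPAS2, had 3022 ± 88.9 and 2978 ± 165 (SD, n = 5; log2 fold change -0.02, standard error 0.043) and was not called, and Tef, the remaining D-box activator, had a log2 fold change of 0.05 (standard error 0.039).

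The 10 kinases and turnover factors of clock proteins had 20% called, beside 18.3% of all genes. Of these factors, Btrc and Fbxw11 were called lower in D2 and none was called higher. They encode the paralogous F-box proteins beta-TrCP1 and beta-TrCP2, which mark phosphorylated PER proteins, among other substrates, for degradation. Btrc had 12724 ± 310 normalized counts in B6 and 8969 ± 324 in D2 (SD, n = 5; log2 fold change -0.50, standard error 0.033, edgeR adjusted p = 2.5e-07). Fbxw11 had 13576 ± 452 and 12067 ± 207 (SD, n = 5; log2 fold change -0.17, standard error 0.031, adjusted p = 0.0018). Bmal2, Hlf, Btrc and Fbxw11 were called in all 19 alternative fits, and their strains did not overlap. Of the kinases, Csnk1d (log2 fold change -0.01) and Csnk1e (-0.07) were not called. Of 5 clock output genes (Wee1, Nampt, Tsc22d3, Por and Usp2), edgeR called 0, DESeq2 called 0, and 0 had an unadjusted p under 0.05.

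Within a strain, the clock genes did not move as one. Over the 45 pairs of clock genes, r of the strain-centred values over 10 mice was above 0 in 26, with a median of 0.092. Of the pairs, 6 reached 0.7, and 5 of these 6 joined Per2, Per3, Cry1 and Nr1d2: Per2 with Per3 at 0.80, Cry1 with Nr1d2 at 0.77, Per2 with Cry1 at 0.77, Per3 with Cry1 at 0.75 and Per3 with Nr1d2 at 0.74. The other was Npas2 with Nr1d1 at 0.71. Some of these values rested on few mice or on 1 strain. Without the 2 mice farthest from the median, Npas2 with Nr1d1 fell to 0.37 and Per2 with Cry1 to 0.52, while Per2 with Per3 was 0.79. Within the 5 D2 mice, Per3 with Nr1d2 was 0.19 and Per3 with Cry1 was 0.40, against 0.82 and 0.84 within the 5 B6 mice, and the difference between the strains was not tested. In Per2, Per3, Cry1 and Nr1d2, B6 replicates 1 and 4 lay above the B6 mean and replicates 3 and 5, the mice with the highest cortical marker levels, lay below it. Cry1 and Nr1d1 had the lowest r, -0.75. No clock gene was among the 50 genes most like another clock gene.

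**Figure D5:**
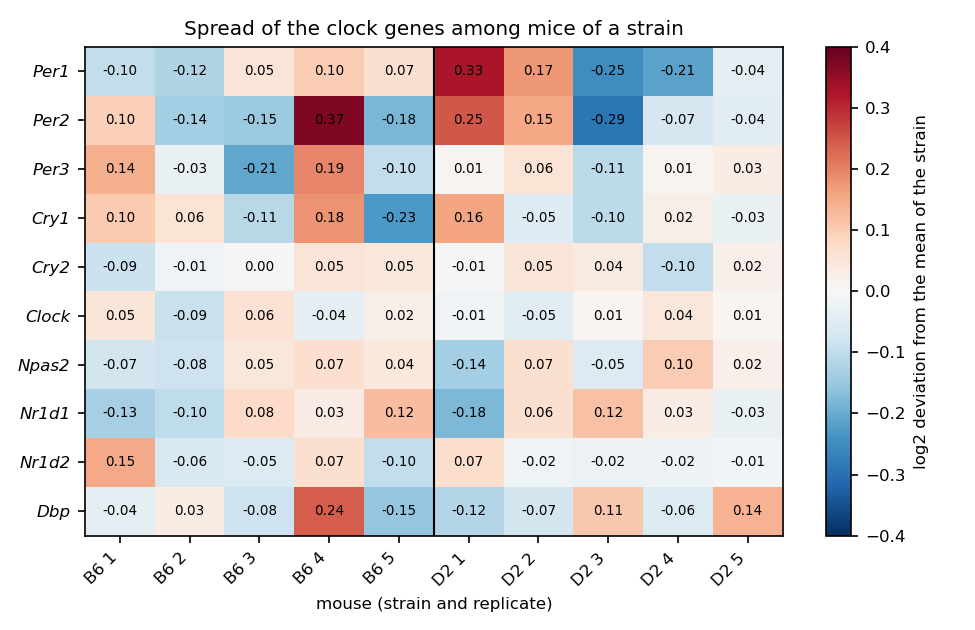
Deviation of each clock gene (rows) in each mouse (columns) from its strain mean, in log2 units, by color. B6 replicate 4 is high in Per2, Per3, Cry1 and Dbp, and D2 replicates 3 and 4 are low in Per1.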

How the data were processed

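Poly-A RNA from the NAc of 5 B6 and 5 D2 mice was sequenced. The authors used fastp for trimming, STAR 2.7.10b for alignment of both strains to the B6 reference genome GRCm39, SAMtools 1.6 for sorting, and featureCounts for counting (strand setting not given in the sources used here). Raw gene counts were deposited, and genes whose median was 0 had been dropped by the authors (lowest median 0.5). D2 reads that carry D2 alleles can align less well, and the loss was not measured here. The labels name Novogene for library construction, and the methods the VCU Genomics Core.

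Counts were fitted with edgeR 4.0.16 (TMM, quasi-likelihood F test, strain as factor) in R 4.3.3 with Benjamini-Hochberg adjustment over 29883 genes and a threshold of 0.05. Standard errors were the absolute log2 fold change over the square root of F. Single genes were also compared by two-sided exact permutation tests over 252 assignments. Symbols, exons and overlaps came from GENCODE for GRCm39 (29519 genes matched), and promoter sequences from RefSeq. Other analysis used Python 3.11.15, numpy 2.4.6, scipy 1.17.1, pandas 2.3.3 and matplotlib 3.10.9.

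The clock genes and lists (other clock factors, kinases and turnover factors, outputs, immediate early genes, glucocorticoid-induced genes and markers of 7 cell types) were chosen with earlier results of these data known. Named were all clock genes, the called genes of each clock or induced list, overlapping genes, and up to 5 genes most like each clock gene among those with a mean of at least 100 counts. Genes named outside this rule, such as Egr1, Bmal1, Tef and the casein kinases, were chosen after their values were seen. The 19 alternative fits were DESeq2 1.42.0, its size factors in edgeR, total counts, upper quartile, filterByExpr, at least 10 counts in every sample and the replicate block. They also held the cortical marker level as covariate, each mouse left out, and B6 replicates 3 and 5 left out together. The last was added after seeing the data. A threshold of 0.01 was also applied to the numbers of called genes and is not among the 19. Tests were tested on simulated data. No libraries were duplicates, as the closest pair of 1 strain (B6 replicates 3 and 5) gave a chi-square averaging 4.89 over genes.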

Additional observations from a re-analysis of the deposited data

Results flagged for a closer look

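Among 20 groups of 5 mice (10 clock genes in each strain), a mouse stood apart from the others of its strain in 2, where chance alone marks about 1 in 20 groups. Per3 in D2 replicate 3 had 9279 normalized counts, with a gap of 0.72 of the D2 range to the next mouse, and this mouse still lay above every B6 mouse. Nr1d2 in D2 replicate 1 had 16648 normalized counts, with a gap of 0.88 of the D2 range to the next mouse.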

How the results depend on the processing

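Per3 and Npas2 kept their direction and their call in all 19 alternatives each. With each mouse left out, Per3 ran from 0.27 to 0.38 in log2 fold change and Npas2 from -0.26 to -0.20. Of 190 values for the clock genes, 177 kept direction and call, 4 passed the threshold newly and 9 changed sign. The sign changes were in genes that were not called. Leaving out single mice gave log2 fold changes from -0.036 to 0.13 for Per2, from -0.0024 to 0.069 for Nr1d2 and from -0.083 to 0.027 for Dbp, and leaving out B6 replicates 3 and 5 gave -0.081 for Per2 and -0.023 for Nr1d2. Nr1d2 changed sign without B6 replicate 5 (-0.0024) and Dbp without B6 replicate 4 (0.027).

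The exact permutation test passed 2 clock genes, and 2 to 4 with single mice left out (4 without D2 replicate 1 and 4 without D2 replicate 2). Of 10 glucocorticoid-induced genes, 2 were called, against 4 by DESeq2, 4 with the cortical covariate, 1 with total counts, 0 at a threshold of 0.01, and 0 to 3 with single mice left out (0 without B6 replicate 2 and D2 replicate 4, 1 without D2 replicate 2). Of the immediate early genes, 1 was called, against 0 with total counts, 0 with the replicate block, 0 at 0.01, and 0 to 1 with single mice left out. With the cortical covariate 4 other clock factors were called in place of 2, while the calls over all genes rose from 5478 to 7833. Over all genes 3415 passed 0.01. Total counts moved the median log2 fold change of all genes from 0.0036 to 0.035.

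Replicate numbers did not pair the mice, since same-numbered mice correlated above 0.1 in 2 of 5 pairs and 2 of 10 libraries correlated best with their own number. With the replicate block 2 clock genes and 4731 genes in all were called. P-values measure the spread between these mice.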

Other observations

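The genes most like each clock gene over the 10 mice, after the strain means were removed and among 15384 genes averaging 100 counts or more, are given as a description, since among so many genes over 10 mice the highest r is always near 1. Per1 was most like Midn (0.97), Egr1 (0.97) and Fbxw9 (0.97), and Per2 most like Casc3 (0.97) and Fmo2 (0.95). Per3 was most like Mirg (0.98) and Por (0.95), the latter an electron donor to cytochromes P450 and 1 of the 5 clock output genes. Cry1 was most like Gm17193 and Phf8 (both 0.98), Cry2 most like Myl6 (0.98), Clock most like Slc4a10 (0.98) and Npas2 most like Musk (0.95). Nr1d1 was most like Hrk (0.99), Nr1d2 most like Fxr1 (0.98) and Dbp most like Sowaha (0.98), with Ppp1r1b, the striatal phosphoprotein DARPP-32, at 0.96.

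The other cell type lists gave mixed counts of called genes between the strains, where 18.3% of all genes were called in either direction. Of 7 oligodendrocyte markers 5 were lower in D2, and of 7 astrocyte markers Gja1 was higher while Aqp4 and Aldh1l1 were lower. Of 6 microglia markers P2ry12 was higher, and of 6 choroid plexus and ependyma markers Folr1 was lower. Folr1 lay near the floor, with means of 5.46 normalized counts in B6 and 0.188 in D2. Of these 6 choroid plexus and ependyma markers, 3 had a positive and 3 a negative log2 fold change. Of 6 endothelial markers edgeR called 0, with 3 at an unadjusted p under 0.05, and DESeq2 called 2.

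Genes within 1 Mb of a clock gene, the gene itself left out, were set beside the 18.3% of all genes that were called. Around Per3, 8 of 30 were called (26.7%, 4 higher and 4 lower in D2). Around Npas2, 10 of 33 were called (30.3%, 6 higher and 4 lower). Around the clock genes that were not called themselves, the share ran from 9.76% (Cry2) to 32.4% (Per1, 34 of 105).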
